A study of Mus musculus with 2 samples.

Results

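Saa3, Lcn2, Hp, Slpi and Plac8 are 5 of the 27998 genes counted in single-cell RNA sequencing of mouse ear skin in allergic contact dermatitis (ACD). They were selected on these same data, as genes of the acute-phase type that stood high in the dermal fibroblasts of ACD skin, so their difference between ACD and control in fibroblasts, and their overlap with the chemokine gene Cxcl9 in single cells, are given as a description with no test. All 5 genes were present in both count matrices. Both libraries came from ear skin of male ICR mice aged 7 to 8 weeks. The ACD mice were sensitized on the back with 1.0% 2,4-dinitrofluorobenzene (DNFB), a hapten, were challenged on the ear with 0.2% DNFB on day 6, and gave skin at 60 hr. The control library was made from healthy mice. Whether control ears received the vehicle, and how many mice were pooled in a library, were not given in the sources used here. There was 1 library per condition, so no difference below has a replicate check, and every interval covers counting error only.

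Acute-phase proteins are made in quantity during infection, injury and inflammation, classically by the liver under interleukin 6 and interleukin 1, and several are also made locally by epithelium, leukocytes and fibroblasts. Saa3 encodes a serum amyloid A protein that is produced mainly outside the liver. Lcn2 encodes lipocalin 2, which binds bacterial siderophores and so withholds iron, and Hp encodes haptoglobin, which binds free hemoglobin. Slpi encodes secretory leukocyte protease inhibitor, an inhibitor of neutrophil elastase and cathepsin G. Plac8 encodes a small cysteine-rich protein found in several leukocytes and epithelia. Lcn2, Hp and Slpi are also known as products of neutrophils, so the neutrophil genes S100a8, S100a9 and Retnlg were read beside them.

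The members lay on the minus strand of GRCm38. Saa3 was at chr7:46711998-46715700, in a cluster with its paralogs Saa1, Saa2 and Saa4. Lcn2 was at chr2:32384633-32388252, Slpi at chr2:164354070-164389095, Hp at chr8:109575128-109579172 and Plac8 at chr5:100553725-100572245. The upstream sequences shown here are those of the 3 members whose window held a searched motif. They are RefSeq sequence on GRCm38.p6, each 190 bases from -250 to -61 relative to the start annotated by RefSeq, written in the direction of the gene. The Lcn2 and Slpi windows lie inside the gene spans given above, which are from GENCODE and begin farther upstream. Capitals mark matches to a CCAAT/enhancer binding protein motif (TTGCNNAA) or an interferon-stimulated response element (GAAA, any 2 bases, then GAAA again), on either strand.
Saa3, chr7:46715737-46715926, minus strand: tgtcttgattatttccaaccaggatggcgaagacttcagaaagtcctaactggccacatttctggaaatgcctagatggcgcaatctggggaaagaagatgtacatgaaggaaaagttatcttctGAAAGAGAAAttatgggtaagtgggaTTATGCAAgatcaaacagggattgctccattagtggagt
Lcn2, chr2:32387800-32387989, minus strand: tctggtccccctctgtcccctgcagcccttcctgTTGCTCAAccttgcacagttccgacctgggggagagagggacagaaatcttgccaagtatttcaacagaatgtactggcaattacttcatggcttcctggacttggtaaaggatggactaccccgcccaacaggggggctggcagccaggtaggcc
Slpi, chr2:164356568-164356757, minus strand: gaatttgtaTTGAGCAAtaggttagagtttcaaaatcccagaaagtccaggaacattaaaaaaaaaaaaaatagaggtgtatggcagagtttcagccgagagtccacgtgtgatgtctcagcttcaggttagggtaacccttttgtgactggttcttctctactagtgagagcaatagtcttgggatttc
In Saa3 the CCAAT/enhancer binding protein match TTATGCAA lay at -99 to -92 and the interferon element GAAAGAGAAA at -125 to -116. The CCAAT/enhancer binding protein match was TTGCTCAA at -216 to -209 in Lcn2 and TTGAGCAA at -241 to -234 in Slpi. Of 32851 RefSeq promoter windows of this length, 7.77% held TTGCNNAA and 2.34% held the interferon element. An NF-kB motif (GGG, any 2 bases, then TTTCC, in 1.02% of windows) and an interferon gamma-activated site (TTCNNNGAA, in 5.51%) were not found in these 3 windows, and none of the 4 motifs was found in the windows of the 2 annotated Plac8 starts. No window for Hp was examined. The motifs are letter matches, with no binding measured here.

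The control library held 12895 barcodes and 99037698 unique molecular identifiers (UMIs), and the ACD library 13163 and 126566870. After the limits on genes, UMIs and mitochondrial share, 12213 control and 11665 ACD cells were kept, with medians of 6850 and 7447 UMIs. Of the barcodes, 50 sequences occurred in both libraries, 47 of them among the kept cells of both. Joint clustering gave 42 clusters, of which 34 were named from marker genes as 16 cell classes, 4 were set aside as mixed and 4 stayed unnamed. Classes were rebuilt here and are written as "-like". Levels are UMIs of a gene per 1000000 UMIs of a class, and ratios are log2 of ACD over control with exact 95% intervals.

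The dermal fibroblast-like (dFB-like) class had 3831 control and 1796 ACD cells with medians of 7158 and 9568 UMIs. All 7 fibroblast markers were found in it, with Dcn in 99.6% of control and 98.7% of ACD cells and Pdgfra in 81.9% and 79.6%. The members and Cxcl9 were not used for clustering, but other genes that differ between the libraries were. Most control dFB-like cells sat in clusters led by Tnc and Postn (1364 cells) and by Cyp2f2 and Aldh1a1 (831 cells). In ACD, the clusters with most cells were led by Saa3 and Cxcl9 (492 cells) and by Coch and Crabp1 (437 cells), so each level below covers a different mixture of fibroblasts in each library.

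Saa3 headed the order of genes that were higher in ACD fibroblasts. The dFB-like cells held 255 Saa3 UMIs in control and 21062 in ACD, or 8.41 and 1108 per 1000000 (95% interval 1093 to 1123 in ACD). The log2 ratio was 7.04 (6.86 to 7.23). The ACD dFB-like cells carried 91.1% of all Saa3 UMIs of the kept ACD cells. Reads can be shared among serum amyloid A genes, so the split between them is uncertain. Saa1 went from 22 to 165 UMIs and Saa2 from 2 to 69 in the same cells, and Saa4 had 0 UMIs in either library.

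The iron- and hemoglobin-binding members were both higher in ACD dFB-like cells. Lcn2 was at 1.68 per 1000000 in control (51 UMIs) and 152 in ACD (2883 UMIs), a log2 ratio of 6.49 (6.10 to 6.92). Hp was at 0.891 per 1000000 in control (27 UMIs) and 18.8 in ACD (358 UMIs), a log2 ratio of 4.40 (3.84 to 5.02). The protease inhibitor Slpi had 5 control and 288 ACD UMIs, or 0.165 and 15.2 per 1000000, and its log2 ratio of 6.52 had the widest interval of the 5 members (5.28 to 8.16). Plac8 was at 13.1 per 1000000 in control (397 UMIs) and 315 in ACD (5983 UMIs), a log2 ratio of 4.59 (4.44 to 4.74). The members were selected for this difference, and the intervals cover counting error only, so the gap between the libraries is a description.

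Ranked with 10 UMIs per 1000000 added on each side, which damps ratios of low genes, the order over 12213 genes was Saa3 at place 1, Plac8 at 4, Lcn2 at 5, Hp at 69 and Slpi at 77, with Cxcl9 at 2. All 5 members passed a fold of 2 on this scale, against 0.884% of the genes ranked, which is a property of their selection. The neighbors at the head of the order were Iigp1 at 3, Cxcl10 at 6 and Gbp4 at 7, known as interferon-induced genes. The median of all ranked genes was -0.004 on this log2 scale.

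**Figure D1:**
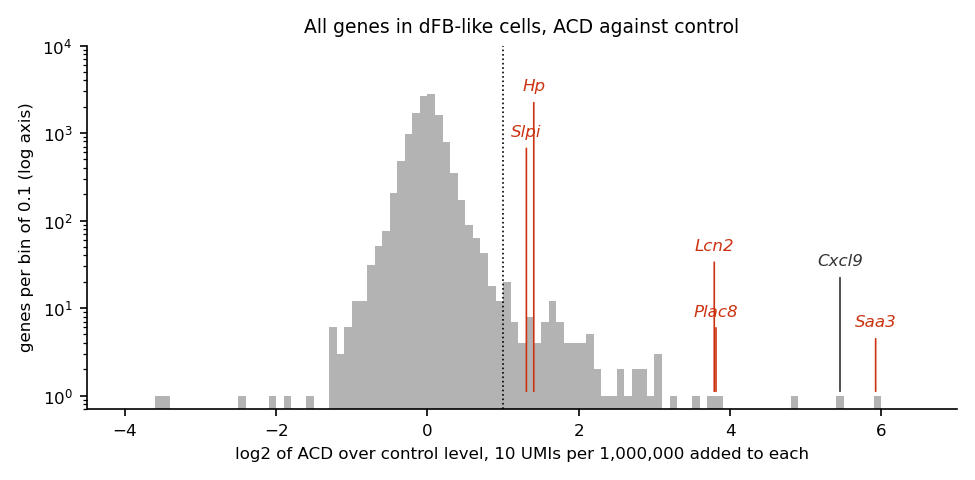
Number of genes (vertical axis, log scale) by log2 ratio of ACD over control in dFB-like cells with 10 UMIs per 1000000 added (horizontal axis), over 12213 genes, with lines at the 5 members and Cxcl9 and a dotted line at a fold of 2. The bulk of the genes lies near 0, and the members lie to the right of a fold of 2, Saa3 farthest.

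Summed levels of leukocyte marker lists were also higher in the ACD dFB-like class. The mononuclear phagocyte list holds Cd74, H2-Ab1 and H2-Aa, at places 18, 36 and 40 of the order above. The part of these genes in its sum was not separated. The summed level of 11 mononuclear phagocyte markers, all found, was 29.3 per 1000000 in control and 172 in ACD, that of 10 T, NK and innate lymphoid (T/NK/ILC) markers 8.18 (9 found) and 42.5 (10 found), and that of 8 neutrophil markers 1.88 (7 found) and 8.00 (8 found). Some other lists were higher in ACD, such as smooth muscle markers at 33.0 and 43.1 per 1000000, and some were lower, with keratinocyte markers at 99.96 and 92.7, chondrocyte markers at 542 and 433, pericyte markers at 231 and 180.0, mast cell markers at 4.65 and 2.00, melanocyte markers at 9.20 and 5.79, and adipocyte markers at 7.92 and 5.16. The summed level of the 7 fibroblast markers was itself lower in ACD, at 59063 and 40070. When the cells with a UMI of Ptprc, S100a8 or S100a9 were left out, 3802 control and 1633 ACD cells remained, and the log2 ratios were 7.03 for Saa3, 6.55 for Lcn2, 4.34 for Hp, 6.64 for Slpi and 4.64 for Plac8. Marker levels in the cells that remained were not measured.

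Neutrophil genes were few in the fibroblasts. S100a8 and S100a9 together had 93 UMIs in ACD dFB-like cells, or 4.89 per 1000000, and 82577 per 1000000 in the 72 ACD neutrophil-like cells. Retnlg had 1 control and 2 ACD UMIs in dFB-like cells. For every 100 UMIs of S100a8 and S100a9, the ACD neutrophil-like cells held 1.89 Lcn2, 2.64 Hp and 0.423 Slpi UMIs. The ACD dFB-like cells held 3100, 385 and 310.

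Each member was found in a minority of the fibroblasts. At all UMIs, 19.6% of ACD dFB-like cells had a Saa3 UMI, 18.9% Lcn2, 3.23% Hp, 3.84% Slpi and 28.4% Plac8. After each cell was thinned to 2000 UMIs, the shares were 13.6% for Saa3, 8.91% for Lcn2, 1.39% for Hp, 1.06% for Slpi and 18.1% for Plac8. In control dFB-like cells the thinned shares were 0.420%, 0.298%, 0.0994%, 0.0303% and 1.91% in the same order. RNA released from other cells can give UMIs in a class that does not make it. In ACD T/NK/ILC-like cells (median 5322.5 UMIs), a class that should lack these products, the thinned shares were 0.882% for Saa3, 0.535% for Lcn2, 0.0705% for Hp and 0.348% for Slpi, and the unthinned ones 2.41%, 1.49%, 0.172% and 1.0%. For Plac8, which lymphoid cells can make, the comparison class was chondrocyte-like cells (median 9152 UMIs) at 0.507% thinned and 1.92% unthinned. The thinned shares in ACD dFB-like cells were above these levels, most narrowly for Slpi (0.638 to 1.66% beside 0.179 to 0.611%). The members were selected for standing high in these cells, so this gap is a description. The share of all genes with such a gap was not counted. In control dFB-like cells only Plac8 stood clear of its comparison class (1.91%, 1.49 to 2.39%, beside 0.0541%, 0.0102 to 0.164%, in chondrocyte-like cells). The control shares of the other 4 members had intervals that overlapped those of control T/NK/ILC-like cells (median 3538 UMIs; 0% for Saa3 and Hp, 0.0896% for Lcn2 and 0.10% for Slpi), so these shares were not told apart from that class at this depth. Of the control Saa3 UMIs, 92.1% were nevertheless in dFB-like cells.

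Within the fibroblasts that carried a member, a handful of cells held much of the RNA. In ACD dFB-like cells, 23 of the 352 cells with a Saa3 UMI held 50% or more of its UMIs, and the highest cell had 1074. For Lcn2 it was 29 of 340 cells, for Hp 7 of 58, for Slpi 4 of 69 and for Plac8 71 of 510. The highest cell alone carried 23.2% of the Hp and 26.7% of the Slpi UMIs, so the levels of these genes rest on few cells and their counting intervals are narrower than the spread between cells. In control, 3 of 25 cells held 50% or more of the 255 Saa3 UMIs, and 81 of them were in 1 cell. Without the highest cell of each library, the log2 ratios were 7.52 for Saa3, 6.61 for Lcn2, 4.46 for Hp, 6.81 for Slpi and 4.62 for Plac8.

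**Figure D2:**
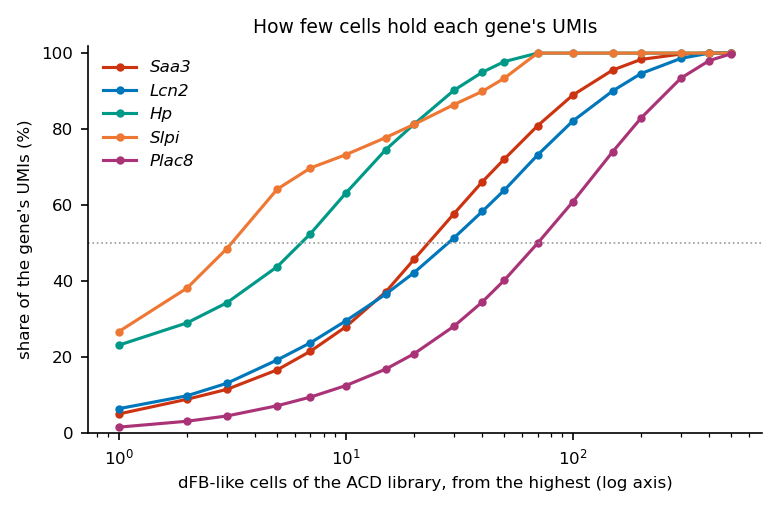
Cumulative share of a member's UMIs in percent (vertical axis) against the number of ACD dFB-like cells, ordered from the cell with most UMIs (horizontal axis, log scale), 1 line per member. The lines of Slpi and Hp rise fastest, reaching 50% within 4 and 7 cells, and that of Plac8 slowest, at 71 cells.

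The 5 members were found together in more fibroblasts of ACD than of control skin. In ACD, 430 dFB-like cells had UMIs of 1 member, 189 of 2, 122 of 3, 35 of 4 and 3 of all 5, and 1017 had none. In control, 209 cells had 1 member, 16 had 2 and none had more. Median depth differed along this count, from 7575 UMIs in ACD cells with no member to 18334 in cells with 4, and its part in the counts was tested only by thinning. In thinned ACD cells, Lcn2 was found in 36.6% of Saa3-positive and 4.53% of Saa3-negative cells, a difference of 32.1 percentage points (25.9 to 38.6). Plac8 was found in 38.6% and 14.8% of the same cells (23.8 points, 17.3 to 30.5). Hp was found in 6.49% of Lcn2-positive and 0.886% of Lcn2-negative cells (5.61 points, 2.25 to 10.7). For Saa3 and Slpi the difference was 1.37 points with an interval that included 0 (-0.22 to 4.16), as did those for Hp and Slpi and for Slpi and Plac8 (-1.16 to 15.8 and -13.7 to 24.5 points).

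The fibroblast subtypes were set by UMIs of marker genes: Pi16, which marks adventitial fibroblasts, Gdf10 with C7, Cyp2f2, and Coch. A cell went to the gate with most UMIs, which gave 637 control and 374 ACD Pi16 cells, 233 and 79 Gdf10/C7 cells, 1111 and 300 Cyp2f2 cells, 705 and 688 Coch cells, and 1145 and 355 ungated cells. The gates were not sharp. Of the cells, 574 in control and 249 in ACD went to their gate by a margin of 1 UMI, and 113 and 54 were tied and left ungated. Median depth in ACD ran from 7305 UMIs in Coch to 14169 in Cyp2f2 cells.

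By level, Saa3 and Lcn2 stood highest in the Pi16 gate of ACD skin. The Saa3 level was 2208 per 1000000 in Pi16, 1664 in Cyp2f2, 767 in Gdf10/C7, 676 in ungated and 164 in Coch cells. The share of cells with a Saa3 UMI, at all UMIs, was 32.7% in Cyp2f2 (27.4 to 38.3%) and 28.6% in Pi16 cells (24.1 to 33.5%). These 2 gates were thus not told apart by share. The Lcn2 level was 353 in Pi16, 145 in Cyp2f2, 118 in ungated, 34.8 in Coch and 33.1 in Gdf10/C7 cells, and the last pair did not differ beyond counting error. Saa3 was thus lowest in the Coch gate of ACD skin. Its log2 ratio was 6.13 (5.25 to 7.20) in Coch, 6.74 (6.47 to 7.02) in Pi16, 7.16 (6.90 to 7.42) in Cyp2f2, 9.43 (7.57 to 12.5, with 2 control UMIs) in Gdf10/C7 and 9.63 (8.58 to 10.9) in ungated cells. With cells that had UMIs of exactly 1 gate, the Coch value was 4.44 (3.53 to 5.52), from 194 of the 974 ACD UMIs. For Lcn2 the log2 ratio was 7.73 (6.81 to 8.87) in Pi16, 6.89 (6.11 to 7.81) in Cyp2f2, 4.41 (3.35 to 5.75) in Coch and 2.57 (1.47 to 3.79) in Gdf10/C7 cells.

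The other members were spread differently over the gates. Plac8 was at 616 per 1000000 in Gdf10/C7, 533 in Pi16, 356 in ungated, 288 in Cyp2f2 and 100.05 in Coch cells of ACD skin. Hp was at 40.5 in Pi16, 22.9 in ungated, 12.3 in Coch, 10.2 in Gdf10/C7 and 2.40 in Cyp2f2 cells. A single Pi16-gated cell had 83 of the 187 Hp UMIs of that gate, more than the 80 in all ungated cells. The Hp level of the gate without that cell was not computed. The Hp log2 ratio in Coch cells was 1.81 (0.996 to 2.72). With at least 10 Coch UMIs required it was -0.27 (-1.52 to 1.01), so Hp had no stable direction in the Coch gate. Slpi, unlike the others, was highest in Coch cells at 28.1 per 1000000, with 0 control UMIs there, which makes it at least 40.1-fold higher against a floor of 3 UMIs over the class. It was at 13.9 in Pi16, 7.17 in ungated, 6.48 in Cyp2f2 and 6.36 in Gdf10/C7 cells. The share of cells gave another order, since 13 of 688 Coch cells carried Slpi, or 1.89%, beside 5.61% in Pi16, 5.33% in Cyp2f2, 5.06% in Gdf10/C7 and 4.23% in ungated cells. A single Coch-gated cell had 77 of the 167 Slpi UMIs. Without the cell with most Slpi UMIs of each gate, the level was 15.2 in Coch (12.2 to 18.7), 7.61 in Pi16 (5.30 to 10.6), 6.34 in ungated, 5.31 in Cyp2f2 and 3.89 in Gdf10/C7 cells.

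Past a fold of 2 on the scale with 10 UMIs added, Pi16 cells had 5 of 5 members ranked (background 1.24% of genes), Coch cells 4 of 5 (1.07%), Cyp2f2 cells 3 of 3 (1.15%) and Gdf10/C7 cells 2 of 2 (1.31%). Members not ranked had under 50 UMIs over both libraries in that gate. These cells are part of the class the members were selected on, and the counts are a description of them.

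**Figure D3:**
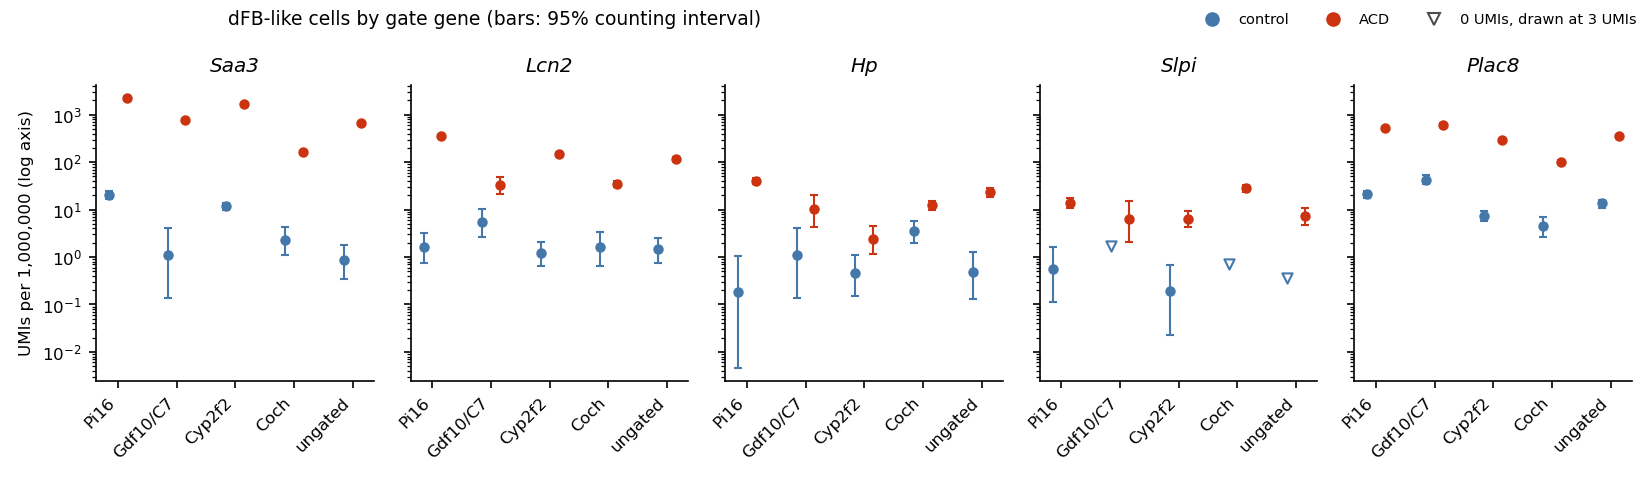
Level of each member in UMIs per 1000000 (vertical axis, log scale) in dFB-like cells by gate (horizontal axis), control and ACD side by side (triangles: 0 UMIs, drawn at 3), with exact Poisson 95% intervals for counting error. Saa3, Lcn2 and Hp peak in the Pi16 gate of ACD skin, where 1 cell had 83 of 187 Hp UMIs. Slpi peaks in the Coch gate, where 1 cell had 77 of 167 UMIs, and Plac8 in the Gdf10/C7 gate.

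By cluster, the Coch-gated Slpi cells were not the cells led by Coch. In the Coch- and Crabp1-led cluster, ACD cells had 4 Slpi UMIs in 437 cells. In the cluster led by the agouti gene a, Cxcl5 and Igfbp3, 203 ACD cells had 176 of the 288 Slpi UMIs, or 115 per 1000000, and 466 control cells had 0. Those UMIs were in 7 of the 203 cells, with 77 in 1 cell, and without it the level was 65.3 (53.1 to 79.5). Hp was also found there, at 6.13 per 1000000 in control and 52.8 in ACD. With clusters made at resolution 2 in place of 1, a cluster led by a, Cxcl5 and Igfbp3 stayed unnamed. Its fibroblast markers had a mean log2 fold of 0.428. The ACD dFB-like class then had 105 Slpi UMIs in place of 288, and where the others went was not traced. Lcn2 in the Coch- and Crabp1-led cluster was at 0.782 and 4.98 per 1000000, and Saa3 there at 0 UMIs in control and 193 per 1000000 in ACD.

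Cxcl9, which encodes a chemokine ligand of CXCR3 on T cells, had 59 UMIs in control and 9757 in ACD dFB-like cells. Cells with a Cxcl9 UMI were deeper (378 cells, median 13967 UMIs) than those without (1418 cells, median 8430.5), so shares were compared in cells thinned to 2000 UMIs, where on average over all draws 223 were positive and 1548 negative. Plac8 was found in 38.0% of Cxcl9-positive and 15.2% of Cxcl9-negative cells, a difference of 22.8 percentage points (16.1 to 29.8). Lcn2 was found in 18.0% and 7.60% (10.4 points, 5.37 to 16.2), and Saa3 in 19.3% and 12.8% (6.5 points, 1.23 to 12.5). For Saa3 the interval included 0 when cells were thinned to 1000 UMIs (4.6 points, -0.70 to 11.1). Hp was found in 1.35% and 1.39% (-0.04 points, -1.33 to 2.55) and Slpi in 0.989% and 1.07% (-0.08 points, -1.15 to 2.32), differences not detectable at this depth. Without thinning the differences were 31.4 points for Plac8, 24.6 for Lcn2, 17.1 for Saa3, 2.61 for Hp and 1.84 for Slpi.

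For Saa3 the gap between Cxcl9-positive and Cxcl9-negative cells was, in relative terms, smaller by level than by share. Per 1000000 UMIs, Saa3 was at 1230 in Cxcl9-positive and 1060 in Cxcl9-negative ACD cells, so it was nearly as high without Cxcl9 as with it. Lcn2 was at 283 and 99.7, Plac8 at 575 and 212, Hp at 15.8 and 20.1, and Slpi at 7.04 and 18.4. Of the 5 members, Lcn2 and Plac8 passed a fold of 2, which 0.384% of 10949 genes did in this comparison. Ptprc, the pan-leukocyte marker, was at 6.49 and 6.69 per 1000000 in the same cells. Split by Cxcl9 UMIs of the thinned cell, Plac8 was found in 15.2% of cells with 0, 32.0% with 1, 39.5% with 2 to 3 and 42.2% with 4 or more. Saa3 was found in 12.8%, 23.1%, 20.9% and 15.2%, and Lcn2 in 7.60%, 20.2%, 20.2% and 14.9%, with no steady climb.

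**Figure D4:**
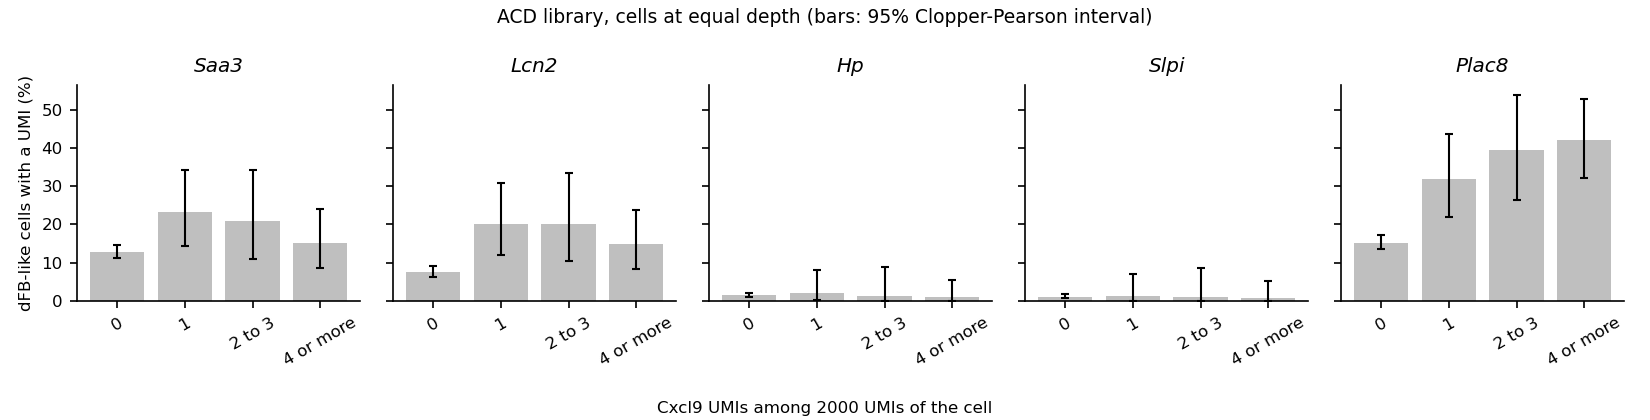
Share of thinned ACD dFB-like cells with a UMI of each member in percent (vertical axis), by the number of Cxcl9 UMIs in the cell (horizontal axis: 0, 1, 2 to 3, 4 or more), with Clopper-Pearson 95% intervals. Plac8 goes from 15.2% to 42.2%, while Saa3 and Lcn2 are lower in the last bin than in the middle ones and Hp and Slpi stay near the bottom.

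Within the gates, the difference with Cxcl9 was clearest for Plac8. In thinned ACD cells, Plac8 differed by 24.5 points (9.03 to 39.6) in Pi16, 23.6 (9.74 to 38.1) in Cyp2f2 and 15.4 (5.58 to 28.6) in Coch cells. Lcn2 differed by 9.66 points (2.17 to 21.5) in Coch cells, by 11.8 (-0.63 to 26.8) in Pi16 and by 4.91 (-4.49 to 17.5) in Cyp2f2 cells. Saa3 differed by 9.38 (-3.55 to 24.5) in Pi16, -0.83 (-12.3 to 13.1) in Cyp2f2 and 5.60 (-1.86 to 17.4) in Coch cells. The Saa3 intervals within the gates included 0, and the Gdf10/C7 gate held too few Cxcl9-positive cells to compare (15 before thinning). In control, 30 dFB-like cells had a Cxcl9 UMI, 7 of them with Plac8.

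Outside the dFB-like class, the members had separate main sources. Saa3 had 0 control UMIs in every named class except dFB-like and chondrocyte-like cells, where it had 1 in the latter. In ACD the highest named class after dFB-like cells was neutrophil-like, at 138 per 1000000, where 18 of 32 UMIs were in 1 cell. An unnamed cluster of 119 control and 100 ACD cells led by Ccl11, Apod and Cp had 0 Saa3 UMIs in control and 1129 per 1000000 in ACD, close to the dFB-like level. Fibroblast was its best-scoring class (mean log2 fold of the markers 1.82), but a marker of another class was among its leading genes. A mixed cluster led by Saa3, Cd163l1 and Il17a had 670 Saa3 UMIs in 25 ACD cells and 0 in 33 control cells. It was not assigned to a class, and its fibroblast markers scored highest (2.73), with T/NK/ILC markers next (1.37). Both clusters may thus hold fibroblasts.

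Lcn2 and Hp were highest in neutrophil-like cells. Lcn2 was at 3783 per 1000000 in 4 control and 1560 in 72 ACD neutrophil-like cells, and Hp at 1039 and 2180, with too few control cells to compare the libraries. In control skin, endothelial-like cells held 49.5% and keratinocyte-like cells 31.3% of the Lcn2 UMIs. Endothelial-like cells were at 533 per 1000000 in control and 311 in ACD, a log2 ratio of -0.78 (-0.95 to -0.61), and 667 of 668 control and 488 of 490 ACD UMIs were in the cluster led by Ccl21a, Mmrn1 and Lyve1, genes of lymphatic endothelium, at 585 and 456. That cluster held 151 of 170 control and 101 of 137 ACD cells of the class. Keratinocyte-like cells were at 169 and 283 per 1000000 (log2 ratio 0.74, 0.55 to 0.93), and chondrocyte-like cells at 3.2 and 41.8 (3.71, 3.45 to 3.97), where 6 of 249 positive ACD cells held 50% or more of the UMIs. Hp had 0 UMIs in control and 83 in ACD mononuclear phagocyte-like cells, at least 5.43-fold higher, and all 83 lay in the Lyz2-, Pf4- and C1qa-led cluster. They were in 19 of 332 ACD cells, with 35 in 1 cell, and control had 62 cells, so this fold rests on few cells.

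Slpi was found in basophil-, keratinocyte- and chondrocyte-like cells. It was at 472 per 1000000 in 271 ACD basophil-like cells, where 49.4% of cells had a UMI, and at 92.8 in 9 control cells. In keratinocyte-like cells its level was lower in ACD, at 131 per 1000000 in control and 56.9 in ACD (log2 ratio -1.21, -1.54 to -0.89). The share of cells was close, since 38 of 179 control and 27 of 139 ACD cells carried it. The highest cell had 37 of the 328 control and 31 of the 106 ACD UMIs, so this ratio rests on few cells. Chondrocyte-like cells held 62.5% of the Slpi UMIs of the ACD library, at 4.57 and 62.4 per 1000000 (3.77, 3.56 to 3.99). The Angptl7- and Cilp2-led chondrocyte-like cluster was the main place, at 19.5 and 163 per 1000000. In mononuclear phagocyte-like cells Slpi had 0 and 114 UMIs, at least 7.45-fold higher.

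Plac8 was the member with the widest spread over classes. Pericyte-like cells were at 675 per 1000000 in control and 3645 in ACD (log2 ratio 2.43, 2.32 to 2.54), and 95 of 105 ACD cells had a UMI. Mononuclear phagocyte-like cells were at 70.9 and 1088 (3.94, 3.45 to 4.47), vascular smooth muscle (VSMC)-like cells at 19.5 and 141 (2.86, 2.40 to 3.34) and basophil-like cells at 297 and 607. In T/NK/ILC-like cells the 3 control UMIs give 0.820 per 1000000 and the ACD level was 49.9 (5.93, 4.38 to 8.21), highest at 121 in the Gzma- and Xcl1-led cluster. B cell-like cells did not differ beyond counting error (441 and 402), with 5 control cells. The dFB-like cells held 38.5% and the pericyte-like cells 24.4% of the Plac8 UMIs of the ACD library.

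**Figure D5:**
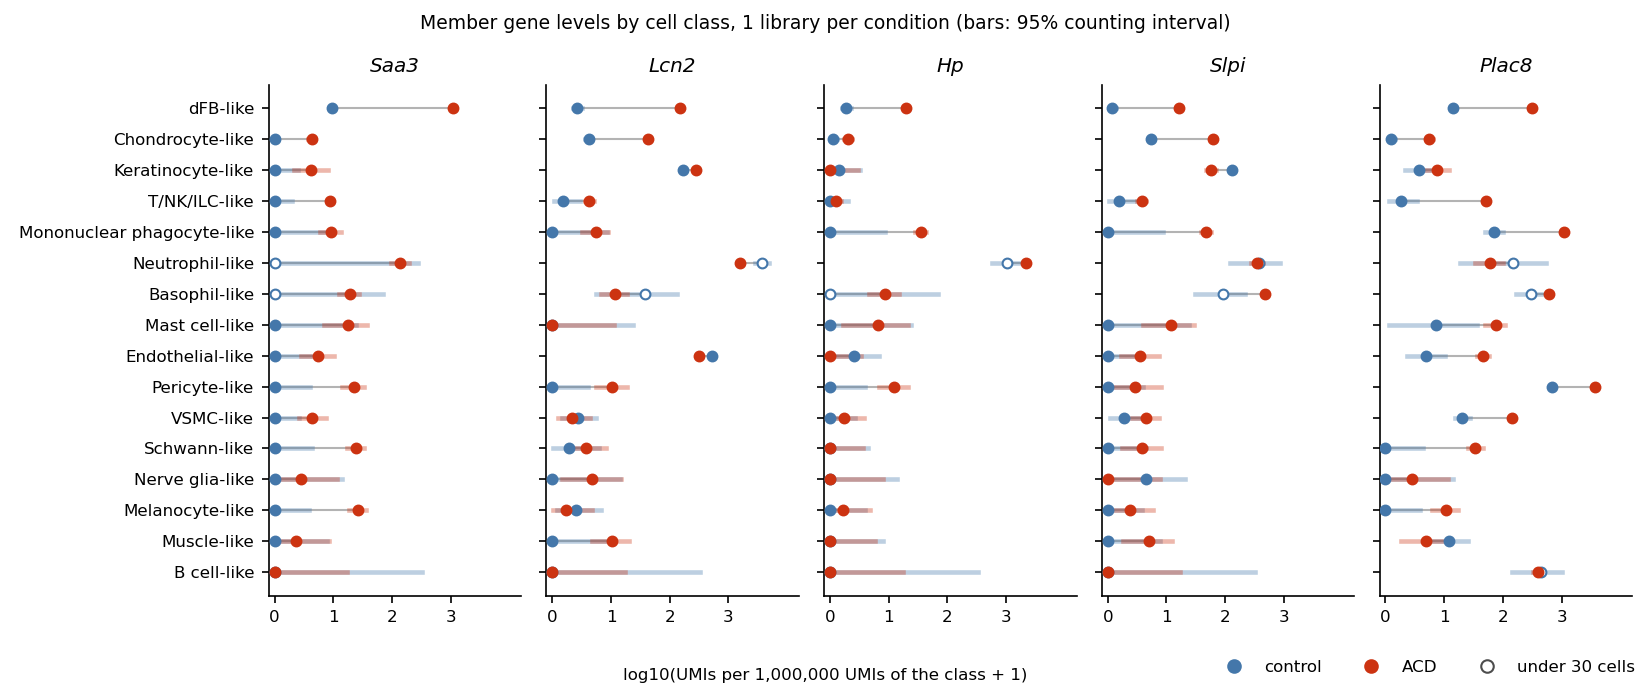
Level of each member as log10 of UMIs per 1000000 plus 1 (horizontal axis) in each cell class (rows), control and ACD as separate points, open below 30 cells, with exact Poisson 95% intervals for counting error. Saa3 stands apart in dFB-like cells of ACD skin, Lcn2 and Hp are highest in neutrophil-like cells, Slpi in basophil- and neutrophil-like cells and Plac8 in pericyte-like cells.

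Counts past a fold of 2 differed by class. Mononuclear phagocyte-like cells had 3 of 3 ranked members past it (background 4.32% of genes) and chondrocyte-like cells 2 of 4 (0.443%), Lcn2 and Slpi. Pericyte-like (2.00%) and VSMC-like cells (1.09%) each had 1 of 1, endothelial-like cells 1 of 2 (2.62%) and T/NK/ILC-like cells 1 of 4 (1.40%), Plac8 in each. Keratinocyte-like cells had 0 of 2 (1.64%).

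Across 29 profiles, each a cell class in a library with at least 30 cells, the genes closest to each member among 11893 by Pearson correlation of levels were Cxcl5 (r = 0.812), Ccl19 (0.795) and Gm2564 (0.784) for Saa3. For Lcn2 they were Lrg1 (0.781), Card10 (0.759) and Il20rb (0.753), and for Plac8 Ifitm1 (0.811), P2ry14 (0.771) and Ifi203 (0.759). Hp was closest to Retnlg (0.938), Clec4e (0.916) and S100a9 (0.891), and Slpi to Hcar2 (0.903), Irg1 (0.788) and Prickle3 (0.755). The profiles share their libraries and many classes appear in both conditions. Among the members themselves, Hp and Slpi were the closest pair (0.591) and Lcn2 and Plac8 the farthest (-0.05).

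By median, other genes of the same functions lay closer than the members to all genes ranked in dFB-like cells. The members were selected for standing high there, so this gap is a property of their selection. Of 31 further acute-phase and metal- or hemoglobin-handling genes, 16 had at least 50 UMIs. Of these, 3 were past a fold of 2 higher, beside 0.884% of all genes ranked. They were Cfb, complement factor B, from 27.3 to 111 per 1000000, the serpin Serpina3n from 70.7 to 206, and the metalloreductase Steap4 from 41.1 to 97.0. The median of the 16 was 0.43 on the log2 scale with 10 added, against -0.004 for all genes ranked, and the lowest were the metallothioneins Mt1 (-0.60) and Mt2 (-0.31). Of 23 protease inhibitor and antimicrobial genes, 8 were ranked, with a median of 0.32. Timp1, an inhibitor of metalloproteinases, was the 1 past the fold, from 74.7 to 307 per 1000000, beside the same 0.884%. Of 32 regulators and receptors, 26 were ranked with a median of 0.05. Il6ra, the interleukin 6 receptor chain, was the lowest of them at -0.61, and Cebpb (0.05), Stat3 (0.10) and Nfkbiz (0.34) stayed within the fold.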

How the data were processed

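Each condition was 1 library of ear skin (control and ACD). The authors aligned the reads to mm10 with Cell Ranger (3.1.0 per the labels and file headers, another version in the methods) and deposited counts of UMIs per gene and barcode, not normalized. Every value was recomputed from these counts. No column belonged to another sample. A barcode was kept if its gene number was above 200 and below 5000, its mitochondrial share below 8% and its UMI total no higher than 25000 (a limit whose direction is reversed in the methods text).

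Counts scaled to 10000 per cell, log-transformed, gave 2000 variable genes (without mitochondrial genes, the members, Cxcl9 and other reported genes), 30 components, 20 neighbors and Leiden clusters at resolution 1, both libraries together. A cluster took the class whose markers led it, with at least 3 markers in 10% of its cells. Clusters with markers of another class and at least 1.5 times the depth were set aside as mixed, and clusters led by skeletal muscle genes stayed unnamed. The naming rule was set after the clusters had been seen. No doublet caller was used, so doublets among deep cells remain possible. Python 3.11.15, scanpy 1.11.5, leidenalg 0.10.2 and scipy 1.17.1 were used.

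Intervals are exact 95% ones: Poisson for sums, conditional binomial for ratios, Clopper-Pearson for shares. They cover counting error only. With 0 control UMIs, folds are against 3 UMIs. Thinned shares are expected values over all draws of 2000 UMIs, and shallower cells were left out (25 of 1796 ACD and 52 of 3831 control dFB-like cells). Ranks used genes with at least 50 UMIs over both libraries and 10 UMIs per 1000000 added. Of the symbols, 56 stood on 2 rows of the files, none of them a member. Likeness used profiles of at least 30 cells and genes with at least 500 UMIs. The ratio and thinning steps were tested on simulated data.

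The members, gene lists and gates were chosen with earlier results of these data known. Named genes were the members, S100a8, S100a9, Retnlg and Cxcl9, the 3 most like each member, and the 3 list genes highest or lowest in dFB-like cells. Serum amyloid paralogs, Iigp1, Cxcl10, Gbp4, Ptprc, Cd74, H2-Ab1, H2-Aa, Cebpb and Stat3 were added after values were seen. One list gene that the rule names is not reported here. Gene positions are from GENCODE and promoters from RefSeq, both on GRCm38. Alternatives covered the cell filter, class and gate making, resolution, weighting, scaling, thinning and the ranking rule.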

Additional observations from a re-analysis of the deposited data

Results flagged for a closer look

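By level, Lcn2 and Slpi were each higher in ACD dFB-like cells and lower in ACD in another class. The levels of the classes thus moved in opposite directions under the same contrast. Lcn2 in endothelial-like cells had a log2 ratio of -0.78, against 6.49 in dFB-like cells. Slpi in keratinocyte-like cells had a log2 ratio of -1.21, against 6.52 in dFB-like cells. The keratinocyte-like value rests on few cells. There, 5 control and 3 ACD cells held at least as many Slpi UMIs as the rest of the class. The share of keratinocyte-like cells with a Slpi UMI was 21.2% in control (15.5 to 28.0%) and 19.4% in ACD (13.2 to 27.0%). These shares did not differ beyond counting error. With 1 library per condition, the difference between classes was not tested. The share of lymphatic-type cells in the endothelial-like class also differed between the libraries (151 of 170 control and 101 of 137 ACD cells), and its part in the Lcn2 value was not tested.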

How the results depend on the processing

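In dFB-like cells all 45 alternative ratios were higher in ACD, and 31 stayed within the main interval. With all deposited barcodes the log2 ratio was 7.33 for Saa3 and 8.93 for Slpi. With the mean over cells in place of the sum it was 6.86 for Saa3, 5.96 for Lcn2 and 4.22 for Plac8. With gates on class markers it was 5.69 for Lcn2, 3.37 for Hp and 4.23 for Plac8, and at resolution 2 it was 5.70 for Hp and 4.93 for Slpi. Of 2 alternatives chosen after seeing the data, leaving out the highest cell of each library gave 7.52 for Saa3, since 81 of its 255 control UMIs were in that cell, and leaving out the Saa3- and Cxcl9-led cluster gave 6.76 for Saa3, 5.33 for Lcn2 and 4.22 for Plac8. For the other changes the cause was not tested. In the comparison with Cxcl9, 25 of 30 alternatives stayed within the main interval. Without thinning the share difference was 17.1 points for Saa3, 24.6 for Lcn2, 2.61 for Hp and 31.4 for Plac8, with deeper cells on the positive side, and with gates on class markers it was -1.57 for Slpi. In the gates, 35 of 45 alternatives did so. Hp in Coch cells changed direction with at least 10 Coch UMIs (-0.27), an alternative also chosen after seeing the data. So was leaving out the cell with most Slpi UMIs, which took its ACD level from 28.1 to 15.2 per 1000000 in Coch and from 13.9 to 7.61 in Pi16 cells. With 1 UMI per 1000000 added in place of 10, the places were 2 for Saa3, 7 for Plac8, 5 for Lcn2, 24 for Hp and 13 for Slpi. No paired analysis was possible because each condition had 1 library. Depth limits Hp and Slpi most, since few cells had a UMI of them.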

Other observations

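Partner genes of the members differed in other cell classes, and the genes here were picked from the lists after their values were seen. Cd163, the macrophage receptor for complexes of haptoglobin and hemoglobin, was at 244 per 1000000 in 62 control mononuclear phagocyte-like cells (117 UMIs) and 14.3 in 332 ACD cells (35 UMIs), a log2 ratio of -4.09 (-4.68 to -3.54), in the class where Hp had 0 control and 83 ACD UMIs. Of those Hp UMIs, 35 were in 1 cell. In the same class Il1b, which encodes interleukin 1 beta, was at 609 and 1822 per 1000000 (1.58, 1.41 to 1.76), and Cd14, a receptor for bacterial lipopolysaccharide, at 215 and 631 (1.55, 1.27 to 1.86).

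In keratinocyte-like cells the level of Slpi was lower in ACD. In that class 4 of 7 ranked protease inhibitor and antimicrobial genes passed a fold of 2 higher, beside 1.64% of all genes ranked. They were the stefin Stfa3 (3.60 and 250.5 per 1000000, log2 ratio 6.12, 5.18 to 7.26), Serpinb1a (6.0 and 33.8), Spink5 (43.2 and 131) and Wfdc3 (7.19 and 25.2). S100a8 and S100a9 together were also higher in that class, at 1.60 and 289 per 1000000. In chondrocyte-like cells, the complement genes C3 (73.4 and 199 per 1000000) and Cfb (5.88 and 28.7) and the complement inhibitor Serping1 (155 and 320) were the 3 of 13 ranked acute-phase list genes past the fold, beside 0.443% of all genes ranked. No difference here has a replicate check.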
